A study of Mus musculus with 13 samples.

Results

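The genes followed in mouse liver were Cyp4a12a, Cyp4a12b, Hsd3b5, Mup20, Mup21, Elovl3 and Cyp2d9, which are 7 of the 18820 genes that had an array feature carrying a single gene symbol. They were selected on their measured values, with earlier results of these data known, for a rise between 3 and 9 weeks in wild-type livers that was smaller in LiSel1lKO livers. Their wild-type rise, the share of it reached in LiSel1lKO livers and their difference at 9 weeks are therefore given as a description, with no test. Each gene had 1 feature of its own. The name STAT5-dependent comes from the literature on these genes, and STAT5 activity was not measured.

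The series holds liver RNA of mice on the C57BL/6J background, 1 array per mouse. The groups were LiSel1lKO at 9 weeks (3 livers), wild type at 9 weeks (3 livers), LiSel1lKO at 3 weeks (4 livers) and wild type at 3 weeks (3 livers). LiSel1lKO mice carry a floxed Sel1L gene and Cre recombinase under the albumin promoter, so the deletion is aimed at hepatocytes. Whether all other liver cells keep the gene was not measured. Sel1L is the adaptor of the Hrd1 ubiquitin ligase, which clears misfolded proteins from the endoplasmic reticulum. All mice were fasted for some hours in the morning. Litter and sex were not in the labels, and nothing was stated on whether the wild-type mice carried the floxed alleles. All expression values below are RMA values on the log2 scale, where 1 unit is a doubling.

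After puberty, male mice secrete growth hormone in pulses, and each pulse activates STAT5b in hepatocytes through the growth hormone receptor and JAK2. This pulsed signal raises a male-biased set of liver genes and holds down a female-biased set. The 7 genes belong to the male-biased set in mice. They encode enzymes of fatty acids and steroids and 2 major urinary proteins, which bind pheromones.

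The livers could be checked for sex and cell type before the genes were read. Xist, the RNA of the inactive X chromosome, lay between 1.71 and 2.64 in all 13 livers. The Y-linked genes Eif2s3y, Kdm5d and Uty lay between 5.89 and 6.95, 5.39 and 6.06, and 5.04 and 5.83. In all 13 livers Xist lay below the array medians given below and the Y-linked genes lay above them. By these genes all 13 livers read as male, and none stood apart from the others in sex. The hepatocyte genes Alb, Ttr and Apoa1 were at 12.48 or above in every liver. Sel1l itself was at 7.90, 7.54 and 7.72 in 9-week LiSel1lKO livers, against 8.78, 8.70 and 8.72 in 9-week wild-type livers. At 3 weeks it was at 8.42, 7.90, 7.20 and 7.10 in LiSel1lKO livers, against 8.94, 8.77 and 8.85 in wild-type livers. At both ages the LiSel1lKO and wild-type values of Sel1l did not overlap, with the LiSel1lKO livers lower. The same held for 8.52% of all features at 9 weeks and 3.53% at 3 weeks. By limma, Sel1l did not pass at either age (adjusted p = 0.108 at 9 weeks and 0.391 at 3 weeks). The array medians lay between 3.72 and 3.81. A value near or below them may be background, which makes a rise from it a lower bound.

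RefSeq promoter sequences (build GRCm38.p6) were at hand for 3 of the 7 genes, Hsd3b5, Mup21 and Cyp2d9. The 100 bases before each annotated start are shown for these 3, to place the motifs searched. They are chr3:98645535-98645634 on the minus strand for Hsd3b5, chr4:62150842-62150941 on the minus strand for Mup21 and chr15:82452277-82452376 on the plus strand for Cyp2d9. Capitals mark TATAA on the strand of the gene.
Hsd3b5: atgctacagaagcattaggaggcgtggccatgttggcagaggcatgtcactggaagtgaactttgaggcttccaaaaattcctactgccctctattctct
Mup21: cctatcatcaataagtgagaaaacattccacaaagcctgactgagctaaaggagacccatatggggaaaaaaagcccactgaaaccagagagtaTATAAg
Cyp2d9: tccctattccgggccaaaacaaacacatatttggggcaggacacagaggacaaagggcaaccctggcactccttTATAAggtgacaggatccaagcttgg
TATAA started 6 bases before the start of Mup21 and 26 bases before that of Cyp2d9, which also held it 27 bases before on the other strand, and was not found on either strand in the 250 bases before Hsd3b5. Of 32851 promoter windows of 250 bases, 22.8% held TATAA on either strand. The STAT5 motif TTCNNNGAA, which reads the same on both strands, had 0 matches in the 250 bases of these 3 genes. It was found in 7.02% of all windows. The absence says only that these letters are not in these windows.

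Cyp4a12a and Cyp4a12b, neighbouring genes for fatty acid omega-hydroxylases that androgens induce in mice, had the steepest wild-type rises of all 18820 genes. Cyp4a12a was at 7.46, 4.73 and 6.63 in 9-week LiSel1lKO livers, against 10.43, 10.06 and 10.76 in 9-week wild-type livers. At 3 weeks it was at 3.78, 2.29, 3.76 and 3.01 in LiSel1lKO livers, against 3.88, 2.81 and 3.27 in wild-type livers. Every 9-week LiSel1lKO liver thus lay above every 3-week liver and below every 9-week wild-type liver. The 9-week difference was -4.14 ± 0.61 on the log2 scale (SE from the fit over 13 livers), or 17.7-fold lower in LiSel1lKO livers. The rise was 3.07 in LiSel1lKO livers, against 7.09 in wild-type livers, a share of 43.2% ± 12.6 (SE propagated from the SDs within groups).

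Cyp4a12b was at 7.20, 3.21 and 6.10 in 9-week LiSel1lKO livers, against 10.29, 9.88 and 10.60 in 9-week wild-type livers. Its 3-week values ran between 2.72 and 3.71 in LiSel1lKO livers, and between 3.14 and 3.36 in wild-type livers. Replicate 2 of the 9-week LiSel1lKO livers was therefore within the 3-week range, while the other 2 were well above it. The share was 33.4% ± 17.2 (SE), from a rise of 2.34 in LiSel1lKO livers, against 7.02 in wild-type livers. The values of both genes correlated with r = 0.98 over the 13 livers (a description, since the 4 groups set most of it). The 2 genes are close copies, and their features may share signal, so they are uncertain one by one.

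Hsd3b5, a keto-steroid reductase of the male mouse liver, had a small share of the wild-type rise and a wide gap between LiSel1lKO livers. It was at 7.10, 3.17 and 3.28 in 9-week LiSel1lKO livers, against 9.58, 9.43 and 8.99 in 9-week wild-type livers. At 3 weeks it was at 3.42, 3.87, 4.53 and 3.64 in LiSel1lKO livers, against 5.35, 3.26 and 3.53 in wild-type livers. Replicates 2 and 3 were thus below all 3-week LiSel1lKO values, and replicate 1 was above them. The 9-week difference was -4.81 ± 0.90 (SE, log2), 28.1-fold lower in LiSel1lKO livers as measured. Since 2 of these 3 livers lay below their own array median, where a value may be background, this fold may understate the fall. The share of the wild-type rise was 12.3% ± 24.9 (SE), and -12.1% without replicate 1.

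Cyp2d9, a testosterone hydroxylase of male mice, followed the same order. It was at 9.02, 7.55 and 7.56 in 9-week LiSel1lKO livers, against 10.07, 10.05 and 10.30 in 9-week wild-type livers. At 3 weeks it was at 7.63, 7.60, 7.85 and 7.72 in LiSel1lKO livers, against 7.97, 8.16 and 7.96 in wild-type livers. Replicates 2 and 3 at 9 weeks were thus slightly below every 3-week liver, although the levels of this gene at 3 weeks were far above the array medians. The 9-week difference was -2.10 ± 0.31 (SE, log2), 4.28-fold lower in LiSel1lKO livers. The share was 16.3% ± 23.4 (SE), and -6.9% without replicate 1. With the 9-week LiSel1lKO level placed between the 2 wild-type means instead, it was 0.7%. Cyp2d9 and Hsd3b5 correlated with r = 0.97 over the 13 livers.

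**Figure D1:**
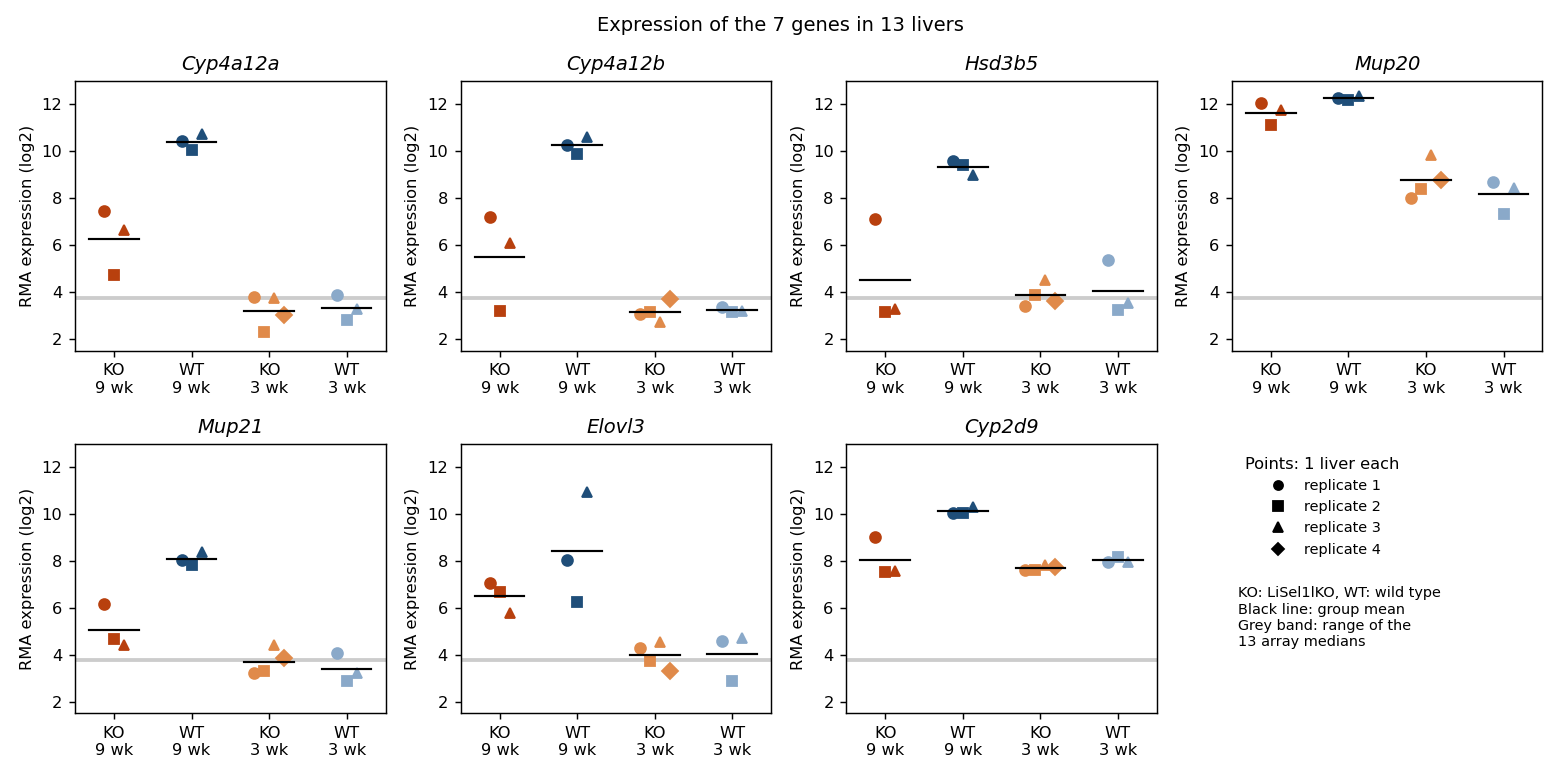
RMA expression (log2, vertical axes) of the 7 genes, with 1 point per liver, the group mean as a black line and the range of the 13 array medians as a grey band. The 9-week LiSel1lKO livers lie below the 9-week wild-type livers in 6 of the 7 genes and overlap with them in Elovl3, and their replicate 1 (circle) is the highest of the 3 in each gene.

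The 2 major urinary protein genes differed from each other. Mup20 encodes darcin, a pheromone of male mouse urine, and Mup21 another protein of this family. Mup20 was at 12.07, 11.14 and 11.75 in 9-week LiSel1lKO livers, against 12.30, 12.20 and 12.35 in 9-week wild-type livers. At 3 weeks it was at 8.02, 8.40, 9.85 and 8.77 in LiSel1lKO livers, against 8.71, 7.35 and 8.45 in wild-type livers. All 9-week livers of both genotypes lay above all 3-week livers. The 9-week difference was -0.63 ± 0.45 (SE, log2), and the share was 70.3% ± 13.7 (SE).

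Mup21 was at 6.16, 4.66 and 4.41 in 9-week LiSel1lKO livers, against 8.03, 7.82 and 8.40 in 9-week wild-type livers. Its 3-week values ran between 3.24 and 4.41 in LiSel1lKO livers, and between 2.87 and 4.09 in wild-type livers. Replicate 3 at 9 weeks thus stood at the level of the highest 3-week LiSel1lKO liver. The 9-week difference was -3.01 ± 0.47 (SE, log2), 8.05-fold lower in LiSel1lKO livers, with a share of 29.2% ± 13.2 (SE). Many Mup genes are near-identical copies in a cluster, so signal may be shared between some of them. How far this touches the features of Mup20 and Mup21 was not tested.

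Elovl3, an elongase of very long-chain fatty acids, had the widest spread of the 7 among the 9-week wild-type livers. It was at 7.05, 6.66 and 5.79 in 9-week LiSel1lKO livers, against 8.05, 6.24 and 10.95 in 9-week wild-type livers. Replicate 2 of the wild type lay within the LiSel1lKO range, so the groups overlapped. At 3 weeks Elovl3 ran between 3.33 and 4.56 in LiSel1lKO livers, and between 2.88 and 4.70 in wild-type livers, and every 9-week liver was above these. The 9-week difference was -1.92 ± 0.95 (SE, log2). The share was 57.6% ± 22.4 (SE), and 81.1% without wild-type replicate 3, or 46.1% without wild-type replicate 2.

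Elovl3 is known for a daily rhythm in mouse liver, and the clock genes, looked at after the Elovl3 values were seen, also varied between 9-week livers. Arntl, the activator of the clock, was at 4.27, 6.26 and 5.33 in 9-week LiSel1lKO livers, against 4.19, 4.39 and 5.97 in 9-week wild-type livers. Per3, a period gene, was at 6.97, 5.82 and 5.90 in LiSel1lKO livers, against 6.81, 6.81 and 6.17 in wild-type livers. The wild-type liver with the most Elovl3, replicate 3, thus had the most Arntl and the least Per3 of its group. Among the LiSel1lKO livers, replicate 1 had the least Arntl and the most Per3. Over the 14 measured clock genes of 16 listed, the summed level ran between 84.4 and 86.4 in LiSel1lKO livers and between 86.1 and 87.3 in wild-type livers. This sum adds genes that ran opposite ways, such as Arntl and Per3, so opposite shifts cancel in it and it cannot show a difference in time of day. The part of the clock genes in the spread of Elovl3, or of the other genes, was not tested.

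**Figure D2:**
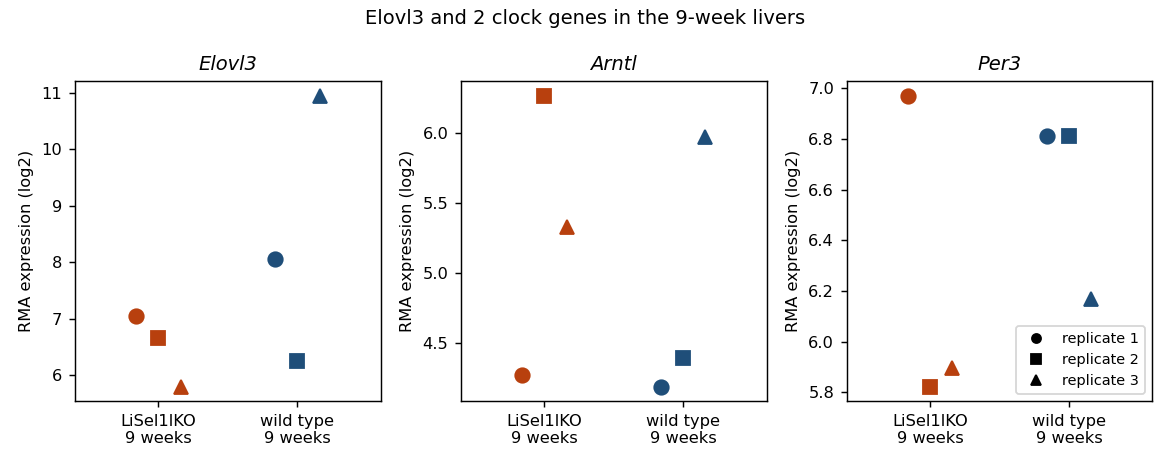
RMA expression (log2, vertical axes, each with its own range that does not start at 0) of Elovl3, Arntl and Per3 in the 6 livers of 9 weeks, with 1 point per liver. Wild-type replicate 3 (triangle) has 10.95 for Elovl3 and 5.97 for Arntl, the highest of its group in both, and 6.17 for Per3, the lowest.

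Across the 7 genes, the share of the wild-type rise reached in LiSel1lKO livers had a median of 33.4% and ran between 12.3% in Hsd3b5 and 70.3% in Mup20. The order was Mup20, Elovl3, Cyp4a12a, Cyp4a12b, Mup21, Cyp2d9 and Hsd3b5, and neighbours in it differed by less than the larger of their 2 SEs. The 3 livers reached different shares. Replicate 1 had the highest value in all 7 genes, with shares between 52.3% in Mup21 and 80.4% in Mup20 and a median of 61.2%. Replicate 2 had a median of 20.3% and was the lowest in 5 genes, and replicate 3 had a median of 41.3% and was the lowest in the other 2. In replicates 2 and 3, Hsd3b5 (-13.2% and -11.0%) and Cyp2d9 (-7.1% and -6.8%) were below the mean of the 3-week LiSel1lKO livers. Without replicate 1 the median share was 21.3%, and without replicate 2 it was 49.7%.

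**Figure D3:**
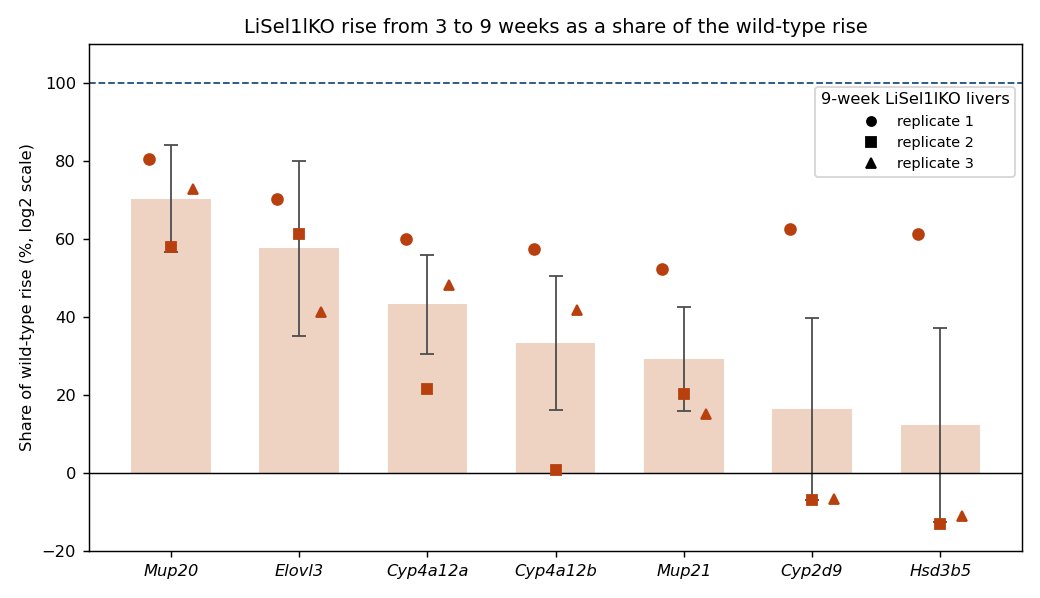
LiSel1lKO rise from 3 to 9 weeks as a percentage of the wild-type rise on the log2 scale (vertical axis). Bars give the share from group means with its SE, points give the 3 LiSel1lKO livers of 9 weeks, and the dashed line marks the full wild-type rise. Replicate 1 (circle) lies between 52.3% and 80.4% in all 7 genes, while replicates 2 and 3 are below 0 for Cyp2d9 and Hsd3b5.

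On the linear scale, where the high wild-type values weigh most, the median share was 9.7%, with Mup20 at 60.8% and the other 6 genes between 5.3% and 10.6%. A position code in the array descriptions names column 5 or 7, and each column held livers of all 4 groups. Within column 5, with LiSel1lKO replicates 1 and 3 and 1 wild-type liver at 9 weeks, the median share was 48.7%. Within column 7, with LiSel1lKO replicate 2 and 2 wild-type livers at 9 weeks, it was 12.4%. With this column as a block in the fit over all livers, the median was 30.1%.

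Other values moved with replicate 1. Its Sel1l level (7.90) was the highest of the 3 LiSel1lKO livers of 9 weeks. Its 7 Kupffer cell markers summed to 45.2, the lowest of these livers, in which the sum reached 54.0. In 9-week wild-type livers the same sum ran between 49.2 and 52.5. All 7 markers were lowest in replicate 1 among the LiSel1lKO livers of 9 weeks. The 4 measured lymphocyte markers of 6 listed averaged 3.45 in replicate 1, 4.04 in replicate 2 and 4.18 in replicate 3, against 3.79 to 4.67 in 9-week wild-type livers. The 7 measured hepatocyte markers of 8 listed summed to between 86.2 and 87.0 in 9-week LiSel1lKO livers, and between 86.4 and 87.5 in 9-week wild-type livers. In whole tissue, fewer cells of a type and less RNA per cell cannot be told apart. The part of these differences in the shares was not tested.

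The 7 genes had, beyond the levels that chose them, large rises in the wild type relative to the whole array, which is what the choice fixes. By wild-type rise they ranked between 1 (Cyp4a12a) and 31 (Cyp2d9) of 18820 genes, and all 7 had 9-week wild-type livers above all 3-week ones, as did 8.46% of all features. In LiSel1lKO livers the 9-week values lay above all 3-week values in 3 of the 7, Cyp4a12a, Mup20 and Elovl3, against 4.67% of all features. Below 9-week wild type without overlap were 6 of the 7 (all but Elovl3), against 8.52% of all features. Nothing is read from these counts, since the choice used these contrasts. A gene chosen for a large wild-type rise also tends to have that rise overestimated, which pulls its share down.

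A reduced share was not particular to the 7 genes. Of the other genes, 24 had a wild-type rise at least as large as that of Cyp2d9 (2.11 on the log2 scale). Their median share in LiSel1lKO livers was 42.2%, with quartiles of 28.0% and 59.1%. Several of the 24 are on the male-biased list below, among them Slco1a1, Cyp7b1, Nox4, Mup3, C6, Cib3 and Cyp2u1, and Mup6 is among the relatives. Over the other 174 genes that rose in the wild type by limma (adjusted p under 0.05 over all features), the median share was 25.4%, with quartiles of 7.3% and 47.8%. Cyp2c38 (121.8%) and Hspb1 (110.4%), a cytochrome P450 and a small heat shock protein named after their values were seen, passed the wild-type rise. These genes share the wild-type rise as denominator and the selection on it.

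**Figure D4:**
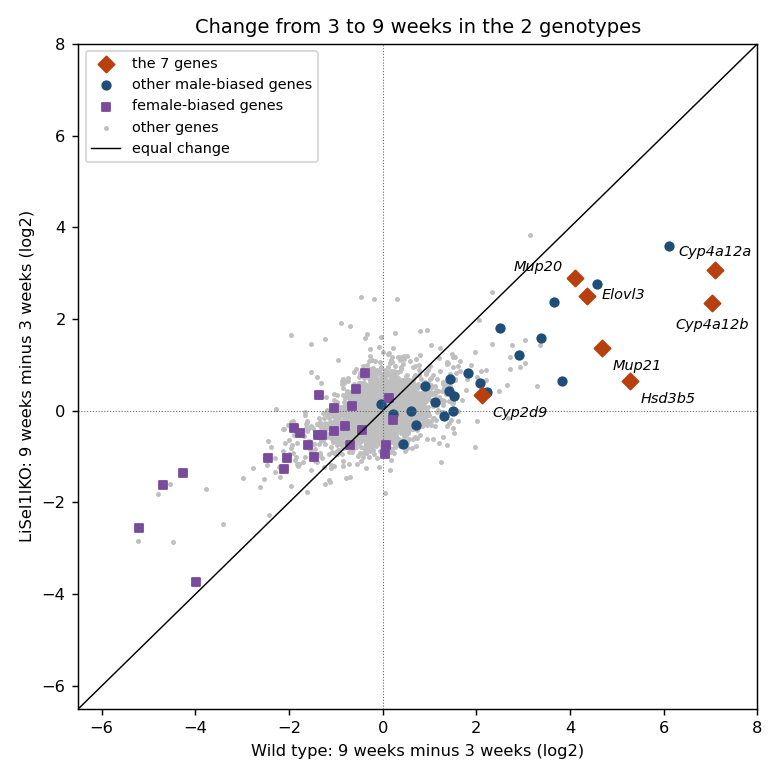
Difference between 9 and 3 weeks (log2) in LiSel1lKO livers (vertical axis) against that in wild-type livers (horizontal axis), with 1 point per gene (male-biased list in blue, female-biased list in purple, other genes in grey) and the line of equal change. All 7 genes (diamonds) lie under the line, from Cyp2d9 at 0.34 and 2.11 to Cyp4a12a at 3.07 and 7.09 (LiSel1lKO first, then wild type).

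The 3-week comparison was not itself the contrast used to choose the genes. Both of its groups entered the rises that were used, so its outcome is not independent of the choice. The comparison asks whether the genes already differed before puberty. By limma, 0 of the 7 differed at 3 weeks (adjusted p between 0.786 and 0.991), with 0 of 7 also at an unadjusted p under 0.05. Over all features, limma called 0% at this age, and 7.41% had an unadjusted p under 0.05. The log2 differences of the 7 ran between -0.33 ± 0.29 in Cyp2d9 and 0.59 ± 0.42 in Mup20 (SE), with a median of -0.075, against 0.0038 for all features. Cyp2d9 was the 1 gene without overlap, lower in all 4 LiSel1lKO livers, as were 3.53% of all features. The SEs ran between 0.29 and 0.89, so small differences were not detectable with these numbers of livers. In addition, 5 of the 7 genes had 3-week livers below their own array median, Cyp4a12b in 4 of 4 LiSel1lKO and 3 of 3 wild-type livers and Cyp4a12a in 4 of 4 and 2 of 3. At such levels the arrays may not show a difference. The summed Kupffer cell markers (50.8 to 53.5 in LiSel1lKO livers, 54.6 to 55.3 in wild-type livers) and the 6 sinusoidal endothelial markers (46.8 to 48.6 and 48.7 to 49.1) did not overlap at 3 weeks.

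Other genes of the male-biased set were lower at 9 weeks as well. The list, like the 3 that follow, was drawn up with earlier results of these data known, so its direction is not independent evidence. Of 22 measured genes (26 listed), 10 fell and 0 rose in LiSel1lKO livers by limma with Benjamini-Hochberg adjustment, against 0.484% of all features that fell. Their median log2 difference was -1.22, against -0.0071 for all features. Cyp7b1, which hydroxylates oxysterols, averaged 6.20 ± 0.55 in LiSel1lKO livers and 8.97 ± 1.30 in wild-type livers (SD, n = 3 each; limma adjusted p = 0.0336). Ugt2b38 and Ugt2b1, glucuronosyltransferases, fell by 1.24 and 1.21 on the log2 scale (limma adjusted p = 0.0123 and 0.0227). Cyp2u1, a fatty acid hydroxylase, fell by 1.84 (limma adjusted p = 0.0296).

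Slco1a1, an organic anion carrier that follows the male growth hormone pattern in mice, did not pass, with a log2 difference of -1.76 ± 0.77 (SE, limma adjusted p = 0.337) and values of 9.11, 6.40 and 7.56 in LiSel1lKO livers, against 9.55, 9.30 and 9.49 in wild-type livers. Of the 22 genes, 16 rose between 3 and 9 weeks in the wild type by limma, against 0.765% of all features. In LiSel1lKO livers 1 did, Nox4, an NADPH oxidase, against 0.0759%. The 2 comparisons use different livers, and the change by age was not shown to differ between genotypes for any feature (limma interaction term, 0 of 35556 features, 0%, and 9.73% at an unadjusted p under 0.05). The median share of these 16 genes was 29.5%, between -9.2% in Ugt2b1 and 71.7% in Cib3.

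Female-biased genes were higher at 9 weeks, with 8 of 26 measured genes (31 listed) that rose and 0 that fell, against 1.03% of all features that rose, and a median of 0.77. Hao2, a hydroxyacid oxidase, averaged 4.65 ± 0.66 in LiSel1lKO livers and 2.51 ± 0.30 in wild-type livers (SD, n = 3 each; limma adjusted p = 0.0121). Slco1a4, an organic anion carrier, rose by 1.90 and Cyp2b9, a cytochrome P450, by 3.23 on the log2 scale (limma adjusted p = 0.0177 and 0.0232). In the wild type, 12 of the 26 fell between 3 and 9 weeks, against 1.12% of all features. In LiSel1lKO livers 2 did, against 0.0787%.

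Close relatives of the 7 genes by family formed a further list, also drawn up with earlier results of these data known. Hsd3b2 and Mup3 are on the male-biased list too, so the fall of Hsd3b2 counts in both lists. Cyp4a10 and Cyp4a14 are also on the female-biased list. Of 24 measured genes of the Cyp4a, Hsd3b, Mup, Elovl and Cyp2d families (41 listed), 4 fell and 0 rose at 9 weeks, against 0.484% and 1.03% of all features, with a median of -0.36. These were Cyp2d40 and Cyp2d10, which belong to the family of Cyp2d9, and Hsd3b2 and Hsd3b3, which convert steroids (limma adjusted p = 0.0121, 0.0220, 0.0121 and 0.0215). Cyp2d40 stood at 6.88 ± 0.36 in LiSel1lKO livers and 8.20 ± 0.14 in wild-type livers (SD, n = 3 each). Cyp4a14, a PPARalpha-responsive relative of Cyp4a12a, had a log2 difference of 0.97 ± 0.27 (SE, limma adjusted p = 0.109). Mup3 and Mup6 had differences of -1.57 ± 0.54 and -0.82 ± 0.58 (SE), which did not pass (limma adjusted p = 0.202 and 0.592).

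Of the growth hormone to STAT5 pathway, 2 of 16 measured genes (19 listed) fell at 9 weeks and 0 rose, against 0.484% and 1.03% of all features. Ghr, the growth hormone receptor, was at 9.22, 8.69 and 8.85 in LiSel1lKO livers, against 9.60, 9.77 and 9.77 in wild-type livers (limma adjusted p = 0.0196). Its highest LiSel1lKO value was again in replicate 1. Igf1, the circulating growth factor that growth hormone induces, fell by 0.53 on the log2 scale (limma adjusted p = 0.0295). Stat5b, the transcription factor itself, differed by -0.12 ± 0.13 (SE, limma adjusted p = 0.754), and Socs2, a feedback target of STAT5, by 0.08 ± 0.31 (limma adjusted p = 0.946). Cish, another feedback target, was at 5.46, 5.55 and 5.45 in LiSel1lKO livers, against 7.25, 7.69 and 5.65 in wild-type livers, and did not pass (limma adjusted p = 0.227). Igfals, the carrier subunit for circulating Igf1, had a log2 difference of -0.81 ± 0.20 (SE, limma adjusted p = 0.0725).

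These list counts rest on a fit in which the 4 groups share their spread. With only the 2 groups of 9 weeks in the fit, 0 genes of each list passed. Without LiSel1lKO replicate 2 or replicate 3 of 9 weeks, 0 of each list passed too, and without replicate 1 the counts were 13 male-biased, 11 female-biased, 7 relatives and 2 pathway genes. Without 1 of the 9-week wild-type livers in turn, the male-biased count was 2 each time, the female-biased count 3 to 7, the relatives 1 or 2 and the pathway genes 0 or 1. The male-biased count was also 5 without 3-week LiSel1lKO replicate 4, and 6 without 3-week LiSel1lKO replicate 2 or 3-week wild-type replicate 3. The summed level of 4 measured erythroid markers did not overlap between the 9-week groups (13.3 to 14.3 in LiSel1lKO livers, 14.8 to 15.8 in wild-type livers). The log2 difference was -1.08 in Alas2, -0.22 in Slc4a1, -0.19 in Rhag and -0.04 in Epb42. Rhag and Epb42 lay below the array medians in all these livers, where a value may be background. The part of this sum was not tested.

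**Figure D5:**
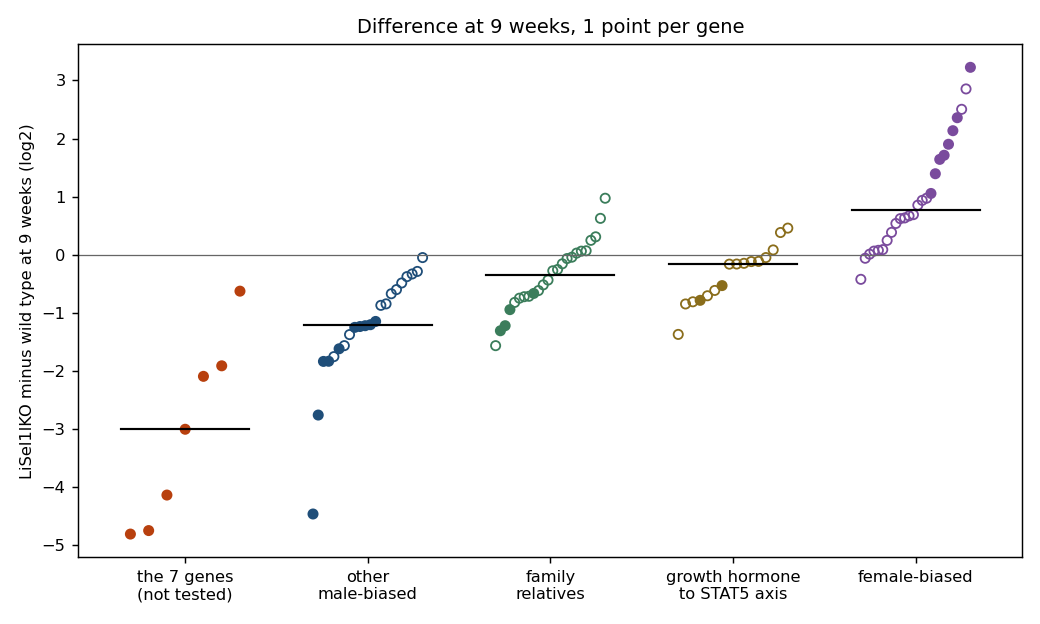
Difference between LiSel1lKO and wild-type livers at 9 weeks (log2, vertical axis), with 1 point per gene in 5 sets and the median as a black line. Filled points in the 4 lists passed limma's test. The medians are -3.01 for the 7 genes, which were not tested, and -1.22, -0.36, -0.16 and 0.77 for the lists from left to right.

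The genes whose pattern was most like that of the 7 were found by Pearson correlation over the 13 livers with the mean of their standardised values. They were C6 (r = 0.979), Serpina12 (0.976), Cyp2c67 (0.971), Ces1f (0.966), C9 (0.961) and Mup5 (0.955). C6 and C9 encode terminal complement proteins, Serpina12 the serpin vaspin, Cyp2c67 a cytochrome P450 and Ces1f a carboxylesterase. C6 was at 7.56, 6.34 and 6.74 in 9-week LiSel1lKO livers, against 8.53, 8.33 and 9.30 in 9-week wild-type livers. Its share of the wild-type rise was 42.1%, and those of the other 5 lay between 21.0% in C9 and 52.9% in Mup5. In each of the 6, replicate 1 was the highest LiSel1lKO liver of 9 weeks. The choice by likeness to the 7 favours this order of livers and reduced shares, so neither is independent evidence. C6 is also on the male-biased list, and Mup5 is among the relatives. The 4 groups set most of these correlations, so they carry no p.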

How the data were processed

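RNA from 13 livers was measured on Affymetrix whole-transcript arrays. The deposited values are on the log2 scale. Robust multi-array averaging (RMA) is the one tool that the submitters' processing notes name. RMA corrects background, quantile-normalizes the arrays and summarises probes, so a shift common to most genes is largely removed. The RMA version is not given in the sources used here. Array scans were not analysed here. The table held 35556 features with no detection calls, between 0.405 and 13.62. The platform annotation gave 1 symbol to 21218 features, several to 1881 and none to 12457. Where a gene had more than 1 such feature, the feature of highest mean level across all livers stood for it.

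Members and lists were chosen with earlier results of these data known. Groups and replicate numbers came from the titles. At 9 weeks the titles' replicate 3 is numbered otherwise in the array descriptions, in both genotypes. The labels name a mouse for each array, with no litter, so p-values measure the spread between these livers. The number of arrays limits the precision. Arrays correlated between 0.983 and 0.988 within groups and between 0.976 and 0.987 across groups.

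limma 3.58.1 in R 4.3.3 was fitted over all features with a mean per group (lmFit, eBayes, two-sided), with Benjamini-Hochberg adjustment over all 35556 and a threshold of 0.05. It was tested on simulated data. The share of the rise is the LiSel1lKO difference between 9 and 3 weeks over that of the wild type, from group means. Alternatives changed the block, the features tested, the low-value filter, the variance trend, centring, the scale and definition of the share, and left out each liver. Named genes were the 7, Sel1l, sex-chromosome genes, the 6 most alike by correlation, and from each list up to 6 with the smallest p at 9 weeks, and Ghr, Stat5b and Socs2. Chosen after their values were seen were Slco1a1, Nox4, Cib3, Mup3, Mup6, Cyp4a14, Arntl, Per3, Cyp2c38 and Hspb1.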

Additional observations from a re-analysis of the deposited data

Results flagged for a closer look

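Among 38 named genes, 1 had a 3-week LiSel1lKO liver far from the other 3 by Dixon's test. Ces1f stood at 7.83 in replicate 1, while the others lay between 8.28 and 8.36. Chance alone gives such a value in about 5% of groups.

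In 10 of the named genes, every liver of 1 group lay above the mean of the livers it was set against, and every liver of the other group lay below its own. Single livers of the groups compared can overlap. The interaction term of limma passed for none of them (adjusted p between 0.107 and 0.671). Between 9 and 3 weeks, the log2 difference in LiSel1lKO and in wild-type livers was -0.31 and 0.70 for Hsd3b2, 0.83 and -0.38 for Cd36, -0.22 and 0.20 for Igf1, and -0.26 and 0.51 for Igfals. For Socs3 it was -0.26 and 0.58, for Hsd3b3 -0.54 and 0.24, for Cyp2d22 -0.16 and 0.54, and for Stat5b -0.14 and 0.13. Between LiSel1lKO and wild-type livers, C9 differed by -1.73 at 9 weeks and 0.37 at 3 weeks, and Hao2 by 2.13 and -0.52.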

How the results depend on the processing

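The median share of 33.4% was 9.7% on the linear scale, and between 21.3% and 49.7% when each liver was left out in turn. The shares of Hsd3b5 and Cyp2d9 turned below 0 with group medians (-8.0% and -5.7%) and without 9-week LiSel1lKO replicate 1 (-12.1% and -6.9%), while leaving out replicate 2 gave 25.1% and 28.0%. Of 147 shares of single genes under alternatives, 137 kept their sign and moved by less than the SD over livers, 6 moved by more and these 4 changed sign. The 137 include the mean over all features of a gene, which cannot move where each gene has 1 feature. The replicate block gave the same shares as leaving out 3-week LiSel1lKO replicate 4, so these are not separate checks. The lowest share was that of Cyp2d9 (0.7%, against 8.9% for Hsd3b5) with the level placed between the wild-type means, and that of Cyp4a12b (5.3%) on the linear scale. At 3 weeks, 0 of the 7 passed under every alternative run and without each liver. At most 2 of all features passed at this age in any run, so this says little about the 7 genes.

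With only the groups compared in the fit, 1 feature passed at 9 weeks in place of 539, 255 in place of 672 for wild-type ageing and 9 in place of 55 for LiSel1lKO ageing, and 0 genes of each list passed. With low features left out they were 861 at 9 weeks and 104 for LiSel1lKO ageing, and with the array column as a block 294 and 18. LiSel1lKO ageing gave 35 with arrays centred, 90 with an intensity trend and 144 with single-symbol features, which gave 2 in place of 0 at 3 weeks. The relatives that fell were 7, in place of 4, under the trend, the low filter and single-symbol features. Leaving out each liver gave 18 to 1178 features at 9 weeks, 296 to 639 for wild-type ageing, 6 to 210 for LiSel1lKO ageing and 0 to 1 at 3 weeks. It gave 0 to 13 male-biased genes, 0 to 11 female-biased genes, 0 to 7 relatives and 0 to 2 pathway genes. The cause was not tested.

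The deviations of same-numbered livers from their group means correlated between -0.011 and 0.071 over all features. Whether these livers were paired, for example by litter, cannot be told from this. With the replicate block, 184 features passed at 9 weeks, 440 for wild-type ageing and 12 for LiSel1lKO ageing, with 5 male-biased, 4 female-biased and 0 pathway genes, and the median share was 36.0%. One alternative, chosen after seeing the data, set values below the array median to it and gave a median share of 29.4%. Low signal limits the 3-week levels of 5 of the 7 genes, which lay below the array median in some livers, and the deposited values carry no detection calls.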
